A study of Mus musculus with 6 samples.

Results

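WT6, a cancer cell line grown from the tumour of a WT mouse, was compared gene by gene with the other 5 lines of the study, KO1, KO3, KO7, WT2 and WT4. A gene was counted as a member when its WT6 value, as log2(normalized count + 1), lay more than 2 above the highest or more than 2 below the lowest of those 5 lines. This gave 565 genes above, 1.02% of the 55401 genes in the files, and 1270 genes below, or 2.29%. Both sets were chosen by the values described here, so these values carry no test, and WT6 is a single library with no replicate of its own.

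The study profiled RNA from primary tumour cells of C57BL/6 mice. Cells of 3 lines (KO1, KO3 and KO7) came from Rag1KO hosts and those of 3 lines (WT2, WT4 and WT6) from WT hosts. Collagenase, dispase and trypsin freed the cells, which were kept in DMEM and serum. Every line is a single culture from its own tumour label, and the tumour type, the hosts' age and the number of passages are not given in the sources used here. Rag1 is needed to assemble antigen receptor genes, and hosts that lack it have no mature T or B cells.

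Fibroblasts are mesenchymal cells that secrete collagens and the enzymes that cross-link them. When activated they also assemble contractile filaments of smooth muscle actin. Fibroblasts from different body sites keep a record of position in their HOX and other homeobox transcription factors, which is stable in culture. Interferons induce a shared programme of antiviral genes through an enhancer called the interferon-stimulated response element (ISRE), which the factor ISGF3 binds.

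The libraries were of similar depth, 55409583 to 62998051 reads on genes, so that 1 read was worth 0.880 to 1.16 normalized counts, and a count of 0 in WT6 allows up to 2.64. Such limits cover counting error only. Over the 14970 genes that reached 50 normalized counts in at least 1 line, Pearson's r across genes was 0.688 to 0.758 in the 5 pairs with WT6 and 0.870 to 0.933 in the 10 pairs of the other lines. Genes are not independent replicates, so these are descriptions. Applied to each line in turn, the same rule found 112 genes above and 64 below for KO1, 190 and 88 for KO3, 428 and 56 for KO7, 116 and 74 for WT2, and 163 and 119 for WT4. The count below was thus 1270 in WT6 and at most 119 in any other line. The targeted gene went against its label: Rag1 read 39.3, 126 and 177 normalized counts in KO1, KO3 and KO7 and 0 in WT2, WT4 and WT6, and the labels do not say which part of the gene is altered. The Y-linked genes Kdm5d, Uty and Ddx3y were at 1994, 1196 and 4345 in WT6 and also present in the 3 lines labelled Rag1KO, whereas WT2 and WT4 had at most 2.01 normalized counts of each. Xist, the RNA of the inactive X chromosome, was at 59776 in WT2, 32733 in WT4 and 5.28 in WT6. Eif2s3y, another Y-linked gene, was at 0 in WT6 and at 1438 to 2944 in the lines labelled Rag1KO.

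**Figure D1:**
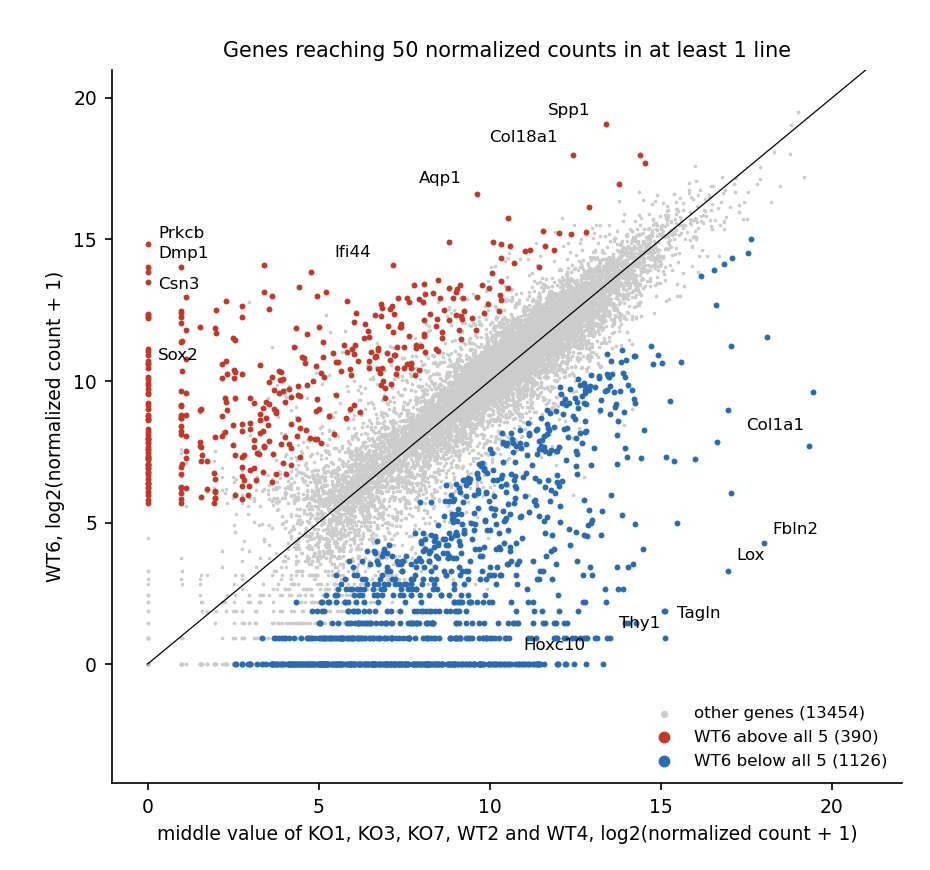
Each point is 1 of the 14970 genes reaching 50 normalized counts in at least 1 line, with the middle value of the other 5 lines on the horizontal axis and WT6 on the vertical axis, both as log2(normalized count + 1); the line marks equal values. The 390 genes above (red) and 1126 below (blue) lie off the line, many of them at 0 on one axis, while most other genes (grey) follow it.

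Of the members, 390 above and 1126 below reached 50 normalized counts in at least 1 line, which is 2.61% and 7.52% of the 14970 genes that did. The distance of a member is its log2 gap between WT6 and the nearest of the other lines. The median distance was 3.06 for members above and 3.60 for members below, and the largest were 13.87 and 13.95. Distance exceeded 10 in 7 genes above and 43 below. It was at least as large as the whole range among the other 5 lines in 393 members above and 956 below. The median range among those 5 lines was 2.03 for all members above and 2.32 for all members below on the log2 scale. It was 0.96 for all genes reaching 50, a set that leaves out members with lower counts, so these are not like for like. For 104 members above, none of the other 5 lines had a read, and for 476 members below WT6 had none. Just inside the limit lay Hid1 at 2.00115 above and Llgl2 at 2.00109 below, and just outside lay Tead4 at 1.996 and Sema6c at 1.994. The median difference of all genes reaching 50 from the middle of the other lines was -0.01.

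Collagen I, the main fibrous protein of connective tissue, was divided in WT6. Col1a1 (chr11:94936224-94953042, mm10), which encodes its alpha 1 chain, had 487349, 1051710 and 657096 normalized counts in KO1, KO3 and KO7 and 478322 and 668008 in WT2 and WT4. In WT6 it had 206, 2323-fold below the lowest of them. Its partner Col1a2, the alpha 2 chain, had 434020, 596023, 684707, 446025 and 631271 in those lines and 151806 in WT6, below all 5 but within the margin. Col3a1, the collagen III chain, was at 126015 in WT6 and inside the range of 105461 to 350041 of the others. That WT6 lay apart from all 5 lines for Col1a1 follows from the rule, and WT6 still had a high level of Col1a2 and Col3a1. Of 37 collagen chain genes reaching 50 counts, 13 were members below and 1 above, and their median difference from the middle of the other lines was -2.62. Col12a1, which encodes a collagen that coats fibrils, had 19267 to 241252 in the other lines and 150 in WT6. Col5a1 and Col6a1 lay nearer the margin, at 15427 and 32899 in WT6 against lowest values of 69396 and 163108. The single chain above was Col18a1 (chr10:77052178-77166548), a basement membrane collagen and the source of endostatin. It had 3354, 13105 and 5504 in KO1, KO3 and KO7, 1476 and 7299 in WT2 and WT4, and 259944 in WT6, 19.8-fold above the highest.

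The enzymes and glycoproteins that cross-link and space collagen and elastic fibres gave the widest gaps of the matrix genes. Lox, the lysyl oxidase that starts collagen cross-links, had 132667, 206436, 125552, 128129 and 63252 in KO1, KO3, KO7, WT2 and WT4 and 8.80 in WT6, 7188-fold below the lowest. Loxl2, its relative, had 10342 to 111658 in the others and 2.64, or 3 reads, in WT6. Fbln2, an elastic fibre glycoprotein, had 145856 to 407600 in the others and 18.5 in WT6, 7893-fold below the lowest. All 5 other lines were high for these genes and WT6 was near or at background. Mfap5, a microfibril protein, had 3450 to 15765 in the others and 1 read in WT6. Adamts2, the protease that trims procollagen ends, had 4641 to 35043 against 9.68. Of 36 genes of this list, 15 were members below and 0 above, with a median difference of -2.41 against -0.01 for all genes.

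Proteoglycans, matricellular proteins and laminins followed with smaller or split counts. Of 24 proteoglycan and hyaluronan genes reaching 50 counts, 8 were members below and 0 above. Fmod and Prelp, small leucine-rich proteoglycans that bind collagen, were at 0 and 2.64 in WT6 against 257 to 11663 and 2338 to 28338 in the other lines. Has2, which makes hyaluronan, was at 350 to 2186 in the others and 0 in WT6, at least 132-fold lower. Of 24 matricellular genes, 12 were members below and 2 above. Thbs1 and Thbs2 encode thrombospondins, adhesive glycoproteins that regulate TGF-beta and angiogenesis. Thbs1 had 143841 to 1201970 in the other lines and 777 in WT6, and Thbs2 94583 to 283554 and 65.1. Postn, periostin of activated fibroblasts, had 165856 to 390024 against 2994. Ctgf and Cyr61, matricellular targets of the YAP pathway, had 157 and 1558 in WT6 against lowest values of 2518 and 11287. Of 31 integrin and laminin genes, 7 were below and 1 above, and their median difference was -0.16. Lama2 and Lama4, laminin alpha chains, had 2.64 and 5.28 in WT6 against lowest values of 830 and 1647, while Itga6, a laminin receptor subunit, was at 24695 against a highest value of 4810. Mmp3, the protease stromelysin-1, was at 11885 in WT6 against 312 to 2448.

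Genes of the contractile apparatus were lower in WT6 as well. Tagln, the actin-binding protein SM22, had 11290, 153024, 35561, 42577 and 22249 in KO1, KO3, KO7, WT2 and WT4 and 2.64 in WT6. Myl9, a myosin regulatory light chain, had 8792 to 49525 in the others and 1.76 in WT6. Cnn1, calponin, had 807 to 40790 in the others and no read in WT6, at least 306-fold lower. Each of these was present in every other line and at 3 reads or fewer in WT6. Acta2, smooth muscle actin, had 57126 to 275990 in the others and 228 in WT6, 251-fold below the lowest. Actg2, enteric smooth muscle actin, had 1098 to 33834 against 1 read. Of 11 smooth muscle and pericyte markers reaching 50 counts, 6 were members below and 1 above, with a median difference of -4.51. The member above was Cspg4, the pericyte proteoglycan NG2, at 6476 in WT6 against 4.63 to 1018. A CArG box, the site of serum response factor, was found by letters in 2.08% of the 1106 RefSeq promoter windows of members below and in 1.63% of all 32851 windows, and in 0 of 4 windows of members in the smooth muscle list. The window of Myl9, which is not in that list, held 1 match, 161 bases before the start.

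Thy1 (chr9:44043384-44048579), a GPI-anchored surface glycoprotein used to sort fibroblasts, gave the widest gap of any gene. It had 34600, 81487 and 41623 in KO1, KO3 and KO7, 29802 and 35624 in WT2 and WT4, and 0.880, a single read, in WT6, a distance of 13.95. Gas6, the ligand of the TAM receptor kinases, had 11378 to 34513 in the other lines and 1.76 in WT6, while Mertk, a receptor of that family, had 191 to 534 in the others and 8814 in WT6. Ligand and receptor thus lay on opposite sides. S1pr3, a receptor for sphingosine 1-phosphate, had 5802 to 15608 against 1 read, and Lpl, lipoprotein lipase, had 4341 to 50380 against none, at least 1645-fold lower. Ly6a, the Sca-1 antigen of mesenchymal progenitors, was lower but present, at 1581 against 13538 to 41841. Alcam, an adhesion molecule of the same marker list, was above, at 7282 against 14.5 to 672.

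**Figure D2:**
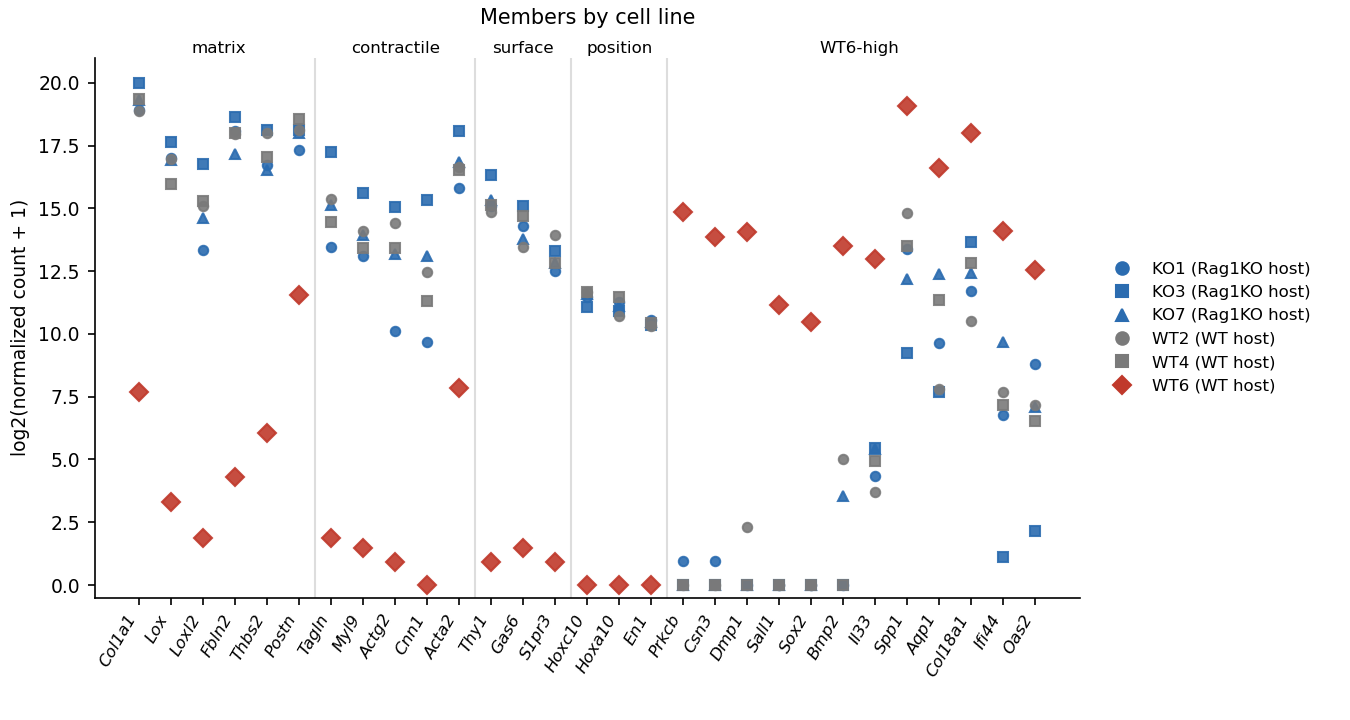
Values of 29 members in each of the 6 lines as log2(normalized count + 1), grouped by function; each symbol is 1 library and there are no error bars because each line is 1 culture. For the 17 genes on the left WT6 (red diamond) lies below all 5 other lines, for Thy1 by 13.95, and for the 12 genes on the right above all 5, for Prkcb by 13.87.

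The other lines are taken here as fibroblast-like, a name the labels do not use, and 22 fibroblast and mesenchyme markers are described. Thy1, Col1a1 and Lox were high in all 5, but the rule chose them partly through those values, so they do not check the name. Col1a2 and Col3a1, which are not members, had 434020 to 684707 and 105461 to 350041 in those lines. Dcn and Lum, the proteoglycans decorin and lumican, varied from 197 to 11372 and from 0 to 2478. In WT6, 9 of the 22 markers were members below and 0 above, with a median difference of -2.01. The summed level of the 22 was 1168920 normalized counts against 2764780 to 4493270 in the other lines. The next 5 markers lay inside the range of the other lines and were chosen after their values were seen. Vim, the intermediate filament of mesenchymal cells, was at 191379 in WT6 and 190559 to 380691 in the others, and Fn1, fibronectin, at 540523 and 277283 to 833459. Prrx1 and Twist1, transcription factors of mesenchyme, were at 28890 and 1797, inside the ranges of 23487 to 38194 and 907 to 2078. Pdgfra, a growth factor receptor of fibroblasts, was at 16592 and inside its range of 7299 to 48300. So WT6 had these 5 markers within the range of the other lines, and Thy1, Col1a1 and Lox far below it. Because the 5 were picked by their values, they do not measure how much of a fibroblast programme WT6 carried. No other cell type name is given to WT6 here. Because these are bulk cultures, fewer cells of a type and less RNA per cell cannot be told apart.

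Markers of other cell types gave no complete set in WT6. Ptprc, the pan-leukocyte antigen CD45, was at 2 reads, and the 15 leukocyte and macrophage markers summed to 381 against 512 to 2127 in the other lines. The 16 epithelial markers summed to 15 against 1923 to 6493: Epcam was at 0 in all 6 lines and Krt19, a keratin, was at 1 read in WT6 against 1744 to 6287. Endothelial markers summed to 5728 against 343 to 1770, through Flt1 and Plvap at 4145 and 1528, while Kdr, the main VEGF receptor, was at 0 and Pecam1 at 3.52. Neuronal markers summed to 18841 against 1028 to 4403. This came from Nefl and Nefm, neurofilament chains, at 10210 and 7903 in WT6 against highest values of 186 and 505 in the other lines. Snap25, a synaptic protein, reached 21.1. Of the other defining neuronal markers, Rbfox3 was at 0, and Tubb3 and Map2 were at 462 and 212, inside the ranges of the other lines. Skeletal muscle markers summed to 5361 against 20.3 to 433, from Chrna1, an acetylcholine receptor subunit, at 2948, and Pax3, a myogenic and neural crest factor, at 2410. The defining muscle markers Myod1, Myog, Myf5 and Myf6 were at 0 in WT6. Osteoblast markers summed to 19140 against 2366 to 4096, from Dmp1 at 16865, with Bglap, osteocalcin, at 4.40. Lymphocyte markers summed to 260 against 5.04 to 62.0, from Lck, a T cell kinase, at 255. The defining lymphocyte markers Cd3e, Cd4 and Cd8a were at 0 in WT6 and Cd3d at 1 read. Melanocyte markers summed to 639 against 680 to 2255, and Schwann cell and neural crest markers to 136 against 266 to 2247. The part of admixed cells in any of the differences was not tested.

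The widest gaps above belonged to genes almost silent in the other lines. Prkcb (chr7:122288751-122634402), protein kinase C beta, had 0.958 in KO1, 0 in KO3, KO7, WT2 and WT4, and 29384 in WT6, a distance of 13.87. Csn3, kappa casein of milk, had 0.958 in KO1, 0 in the other 4 lines and 14656 in WT6. Pcdh17, a protocadherin, had no read in any of the other 5 lines and 5113 in WT6, at least 1471-fold higher. Each of these transcripts was thus at 1 read or none outside WT6. Dmp1, a mineralized matrix phosphoprotein, had 4.03 in WT2, 0 in the other 4 and 16865 in WT6. Cdh13, T-cadherin, had at most 11.6 in the others and 7935 in WT6. Trpa1, an irritant-gated cation channel, and Calcb, the calcitonin gene-related peptide 2 precursor, had no read in the other 5 lines and 843 and 1083 in WT6.

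Some members above were well expressed everywhere and higher still in WT6. Spp1 (chr5:104435118-104441050), osteopontin, a secreted phosphoprotein that binds integrins, had 10756, 597, 4607, 29134 and 11706 in KO1, KO3, KO7, WT2 and WT4. In WT6 it had 556239, 19.1-fold above the highest. Aqp1 (chr6:55336432-55348555), the water channel aquaporin-1, had 789, 203, 5315, 222 and 2603 in those lines and 100950 in WT6, 19-fold above the highest. The other lines spread widely for both genes, and WT6 lay beyond all of them, as the rule requires. Slc14a1, the urea transporter, was another membrane channel among the members, at 17331 in WT6 against 3.48 to 44.3.

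Secreted signals and receptors are given by family, beside the 7.52% below and 2.61% above of all genes reaching 50 counts, among which members below already outnumber those above. Of 71 receptor tyrosine kinases and ligands reaching 50 counts, 19 were members below and 5 above, with a median difference of -1.22. Fgfr2, a fibroblast growth factor receptor, had 934 to 4018 in the other lines and no read in WT6, at least 354-fold lower, and Ror2, a WNT5A receptor, had 1458 to 2578 against 5.28. Flt1, the VEGF receptor 1, was above, with 4145 against 6.71 to 434. Of 48 TGF-beta and BMP genes, 14 were below and 1 above. Inhbb, an activin subunit, had 539 to 23380 in the others and 1 read in WT6, and Fstl3, an activin antagonist, had 974 to 7185 against 3.52. Bmp2, a bone morphogenetic protein, was the one above, at 11680 against 0 to 31.2. Of 37 WNT genes, 13 were below and 1 above. Lrp5, a WNT co-receptor, had 3183 to 6489 in the others and 17.6 in WT6, and Lgr5, a receptor for R-spondins, had 264 to 5438 against 0. Wnt7b, a ligand, was at 3713 against 0 to 523. Of 62 cadherins and protocadherins, 9 were below and 5 above. Cdh11, the cadherin of fibroblasts, was among those below, at 41.4 against 4800 to 25900.

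HOX genes separated WT6 from the other lines by position within the clusters. Hoxc10 (chr15:102966796-102971893), a limb and lumbar patterning factor, had 2866, 2156, 3080, 3267 and 3247 in KO1, KO3, KO7, WT2 and WT4. WT6 had no read, at least 817-fold lower. Hoxa10 had 1667 to 2834 in the others and 0 in WT6, and Hoxc13 1028 to 2046 and 0. Of 28 HOX genes reaching 50 counts, 14 were members below and 0 above, with a median difference of -6.44. The neighbours Hoxa3, Hoxa5, Hoxa6, Hoxa7, Hoxa9 and Hoxa10 on chromosome 6 were members below, as were Hoxc10, Hoxc11, Hoxc12 and Hoxc13 (chr15:102921103-102971893). The remaining values were chosen after they were seen. In the Hoxc cluster Hoxc8 was at 0 in WT6. Hoxc6 was at 349 against 527 to 1849, Hoxc4 at 90.6 against 167 to 338, and Hoxc5 at 44.0, also below all 5 but within the margin. In the Hoxb cluster Hoxb9 was at 0 against 41.3 to 5999, and Hoxb7 was at 690 against 83.3 to 464. In the Hoxd cluster Hoxd8 was at 899 in WT6 against 0 to 308, Hoxd9 at 298 against 0 to 149, and Hoxd4 at 18.5 against 0 in all 5. Low or absent in WT6 were thus Hoxa3 to Hoxa10, Hoxb9 and Hoxc8 to Hoxc13, while lower-numbered Hoxb and Hoxc genes were present.

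**Figure D3:**
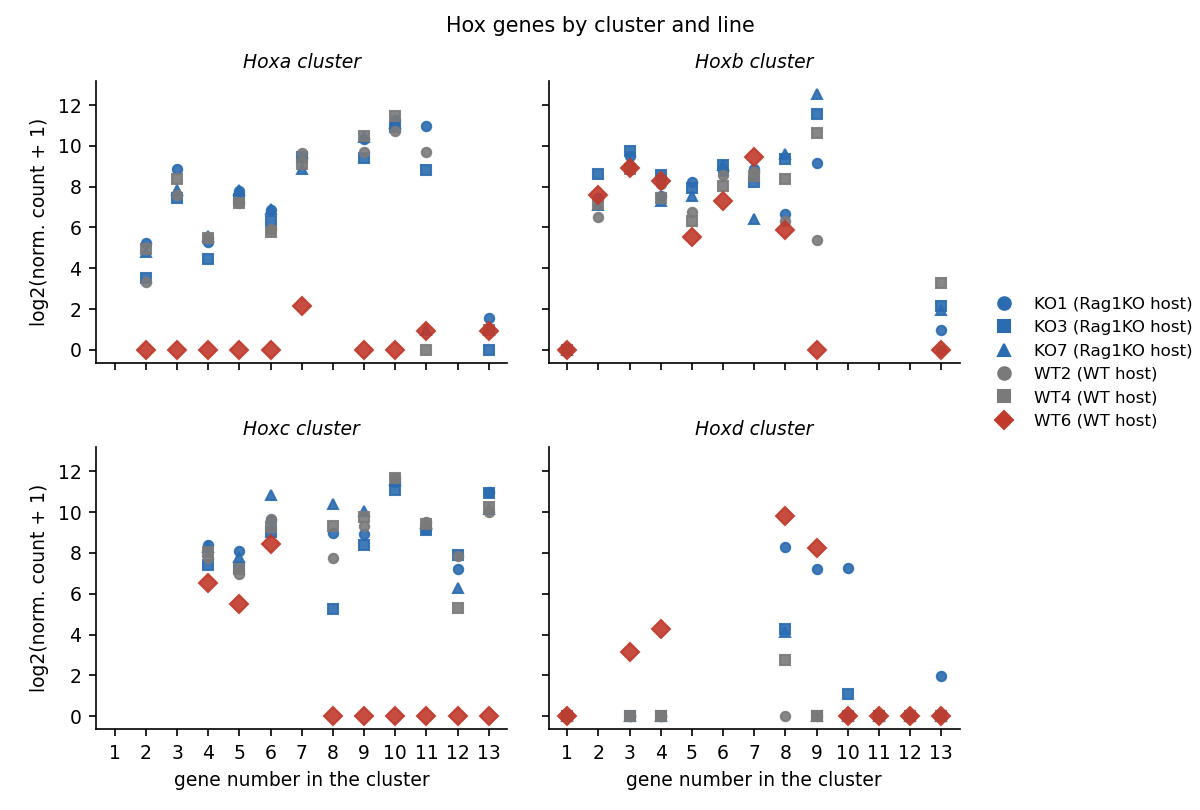
Each panel shows genes of 1 HOX cluster, with the gene's number on the horizontal axis and log2(normalized count + 1) on the vertical axis; each symbol is 1 line. WT6 (red diamonds) is at or near 0 for Hoxa3 to Hoxa10, Hoxb9 and Hoxc8 to Hoxc13, and lies among or just under the other lines for Hoxb2 to Hoxb6, Hoxb8 and Hoxc4 to Hoxc6, and above all 5 for Hoxb7.

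Other patterning factors lay on both sides. Of 94 such genes reaching 50 counts, 18 were members below and 10 above. En1, engrailed 1 of the limb ventral ectoderm and of dermal fibroblast lineages, had 1505, 1299, 1430, 1286 and 1371 in KO1, KO3, KO7, WT2 and WT4 and no read in WT6, at least 487-fold lower. The 5 other lines lay within a narrow band. Ebf1, an early B cell factor that also marks mesenchyme, had 4386 to 9235 against 1 read, and Ebf3 753 to 2593 against 0. Irx1 and Irx2, Iroquois factors, had at least 408 and 539 in the others and 0 in WT6. On the other side, Sall1, a kidney and limb zinc finger factor, had no read in the other 5 lines and 2251 in WT6. Sox2, a factor of pluripotent and neural progenitor cells, had none in the others and 1405 in WT6, but other pluripotency markers were not there: Nanog was at 0. A non-coding gene overlaps Sox2, and reads of the pair may be shared. Isl1, a factor of motor neurons and cardiac progenitors, had none in the others and 514 in WT6, and Tbx20, a cardiac T-box factor, none and 162.

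Interferon genes had the highest share of members above among the lists with at least 10 genes reaching 50 counts. Ifi44 (chr3:151730922-151749960), an interferon-induced cytoplasmic protein, had 107, 1.16, 826, 204 and 144 in KO1, KO3, KO7, WT2 and WT4 and 17438 in WT6. Oas2 and Oas3 make the oligoadenylates that activate RNase L. Oas2 had 448, 3.48, 136, 141 and 91.7 in those lines and 5961 in WT6, and Oas3 had 154, 0, 88.2, 187 and 11.6 and 3030. KO3 was the lowest line for all 3 genes and WT6, by the rule, the highest. Gbp4, a guanylate-binding GTPase, had at most 8.72 in the others and 1554 in WT6. Of 67 interferon effector genes reaching 50 counts, 17 were members above and 1 below, and their median difference was 2.54. Their summed level was 496988 in WT6 against 65982 to 217003 in the others. The member below was Ifitm1, a restriction factor of viral entry, at 3.52 against 43.1 to 251. Tgtp1 and Tgtp2, and Oas1a and Oas1g, are near-identical copies, so their counts are uncertain singly.

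The promoters of these interferon genes are shown because the response element can be read in them. RefSeq promoter windows of GRCm38.p6, 250 bases before to 50 after each start, were available for 342 members above, in 430 windows, and for 842 below, in 1106. They were searched on both strands for the ISRE core GAAANNGAAA, whose other strand reads TTTCNNTTTC, a motif chosen after the members had been seen. It was in 10 of 12 windows, from 11 genes, of the interferon effector members above (not in those of Cmpk2 and Ifi44), in 7.67% of all windows of members above, in 2.80% of those of members below and in 3.44% of all 32851 windows. A match is a description of letters and not a measured binding site. The motif was not counted in interferon effector genes that are not members, so the 10 of 12 windows cannot be tied to membership. They also include near-identical copies (Tgtp1 and Tgtp2, Oas1a and Oas1g). The 250 bases before the start are given 5′ to 3′ on the gene's strand, with matches in capitals, for Ifit3 (chr19:34583279-34583528, plus strand), Bst2 (chr8:71537473-71537722, minus strand), Oas3 (chr5:120777660-120777909, minus strand) and Ifi213 (chr1:173599273-173599522, minus strand).
Ifit3: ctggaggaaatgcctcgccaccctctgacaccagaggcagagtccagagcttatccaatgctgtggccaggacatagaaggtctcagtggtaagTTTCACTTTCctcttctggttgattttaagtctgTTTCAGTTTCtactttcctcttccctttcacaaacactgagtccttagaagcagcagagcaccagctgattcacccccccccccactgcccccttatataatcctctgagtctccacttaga
Bst2: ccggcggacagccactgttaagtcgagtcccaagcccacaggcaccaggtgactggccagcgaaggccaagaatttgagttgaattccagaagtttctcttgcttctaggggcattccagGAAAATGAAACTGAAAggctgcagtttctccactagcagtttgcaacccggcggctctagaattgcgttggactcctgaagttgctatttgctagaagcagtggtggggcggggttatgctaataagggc
Oas3: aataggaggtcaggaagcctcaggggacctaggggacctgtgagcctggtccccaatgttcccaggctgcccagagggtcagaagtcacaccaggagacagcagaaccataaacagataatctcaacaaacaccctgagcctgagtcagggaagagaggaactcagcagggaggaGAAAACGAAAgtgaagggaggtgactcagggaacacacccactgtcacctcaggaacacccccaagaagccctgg
Ifi213: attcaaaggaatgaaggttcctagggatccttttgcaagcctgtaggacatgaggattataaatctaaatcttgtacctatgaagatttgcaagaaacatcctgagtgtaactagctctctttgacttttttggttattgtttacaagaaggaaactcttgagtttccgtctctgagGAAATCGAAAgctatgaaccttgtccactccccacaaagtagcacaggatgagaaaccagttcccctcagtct
The first match began 156, 130, 75 and 73 bases before the start in Ifit3, Bst2, Oas3 and Ifi213, and Ifit3 and Bst2 held 2 matches each, those of Bst2 overlapping. Ifit3, which encodes an antiviral tetratricopeptide protein, had 4184, 467, 8602, 7036 and 3217 normalized counts in KO1, KO3, KO7, WT2 and WT4 and 38409 in WT6. Bst2, the virion tether tetherin, had 527 to 4339 in the other lines and 29635 in WT6. Ifit3 and Bst2 were given because their windows hold 2 matches, after their values were seen. Ifi213, a gene of the DNA-sensing Ifi200 family, had 0 to 16.5 in the others and 3283 in WT6, and lies in the run of neighbours described next.

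Members were found on every autosome and on X. Among genes reaching 50 counts, 1.07% to 5.08% of those on an autosome or X were above and 5.78% to 11.2% below. The share above was highest on X and the share below on chromosome 15. On X, 13 of the 27 genes above lie in 1 run of a multicopy family, described below. Protein-coding genes made up 84.1% of members above and 91.5% of members below that reached 50, against 85.5% of all genes that did. The median ratio of observed to expected CpG in promoter windows was 0.408 for members above and 0.516 for members below, whether or not they reached 50. It was 0.741 for genes reaching 50, which is not a like set, and 0.384 for all windows.

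Members also lay in runs of neighbouring genes. Among genes reaching 50 counts in chromosome order, 11 runs of at least 3 members above held 53 genes, and 40 runs below held 135. On chromosome 1, 8 neighbours of the Ifi200 family and its surroundings, from Aim2 to Ifi207 (chr1:173350879-173741747), were all above. Aim2, a cytosolic DNA sensor, had 1280 in WT6 against 1.16 to 159. On chromosome 5, 6 neighbours of the Gbp cluster (chr5:105077630-105346472) and 4 neighbours with Sparcl1, Dmp1 and Spp1 (chr5:104079111-104441050) were above. Some of these overlap, so their reads may be shared and they are not separate genes in the count. Gm42793 lies within Spp1, Gm43302 overlaps Gbp10 and Gbp6, and Gbp4 overlaps Gbp9. Sparcl1, a matricellular relative of osteonectin, had 315 to 3386 in the others and 55620 in WT6. The longest run above, 13 genes of the X chromosome around Ott and Luzp4, is a multicopy family whose reads can be split between near-identical copies. Runs below included the 4 small leucine-rich proteoglycan genes Ecm2, Aspn, Omd and Ogn (chr13:49504810-49624501). Aspn, asporin, had 4245 to 8828 in the others and 24.6 in WT6. A run of complement genes, C1rl, C1ra, C1s1, C1rb and C1s2 with a predicted gene (chr6:124493113-124636085), was below as well.

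Antigen presentation and cytokine genes were split. Of 24 MHC class I and peptide-loading genes reaching 50 counts, 3 were members above and 1 below, with a median difference of 1.66. H2-D1, a classical class I heavy chain, had 6239, 3785, 6020, 3701 and 5307 in KO1, KO3, KO7, WT2 and WT4 and 37254 in WT6, 5.97-fold above the highest. H2-K1, the other classical chain, was at 8924 against 1181 to 6706 and B2m, their light chain, at 85138 against 13715 to 26518. These 2 were above all other lines but within the margin, and were chosen after their values were seen. Of 4 class II genes, 3 were members below. H2-DMb1, a peptide exchange chain of that pathway, had 57.4 to 1006 in the others and 1 read in WT6. Of 43 chemokines and cytokines, 9 were below and 3 above. Ccl7 and Ccl9, monocyte-attracting chemokines, were at 127 and 0.880 in WT6 against lowest values of 4313 and 623. Il33, an alarmin of stromal cells, had 19.2, 42.9, 41.7, 12.1 and 29.9 in the other lines and 8169 in WT6, 191-fold above the highest. Il34, a ligand of the CSF1 receptor, had 32.4 to 286 against 4357.

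**Figure D4:**
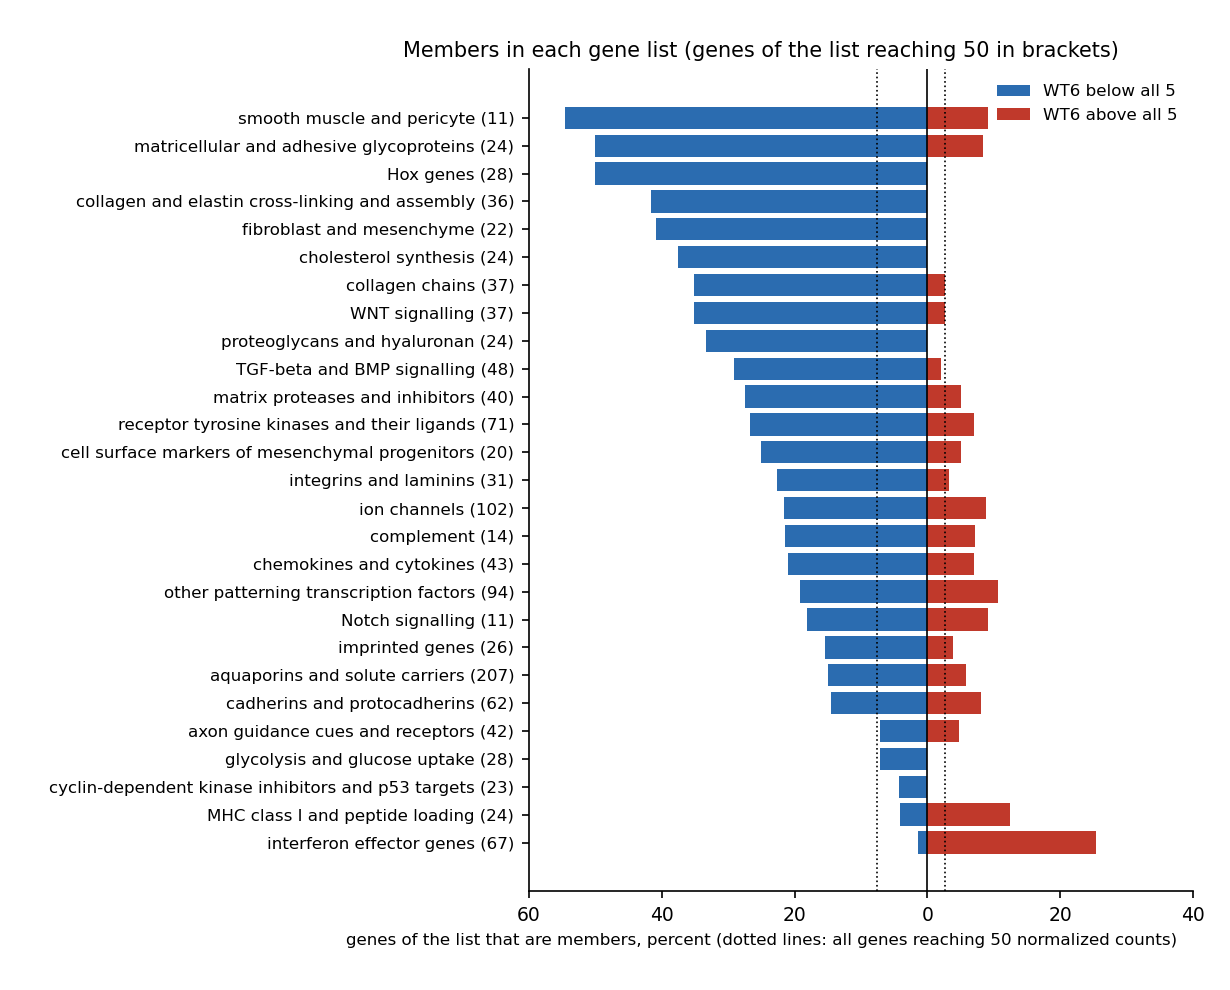
For each gene list with at least 10 genes reaching 50 normalized counts, bars give the percent of those genes that are members below (blue, to the left) or above (red, to the right); dotted lines mark 7.52% below and 2.61% above for all genes reaching 50. Smooth muscle, matricellular and HOX lists extend farthest to the left, and interferon effector genes farthest to the right.

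Metabolic genes were counted because the series' title names metabolism. Of 28 genes of glycolysis and glucose uptake reaching 50 counts, 2 were members below and 0 above, near the 7.52% and 2.61% of all genes, and their median difference was -0.26. Pfkfb3, a regulator of phosphofructokinase, was at 13.2 in WT6 against 315 to 1117, and Slc2a3, the glucose transporter GLUT3, at 11.4 against 51.2 to 195. Of 24 cholesterol synthesis genes, 9 were members below and 0 above, with a median difference of -2.53. Hsd17b7, a sterol reductase, had 5113, 5072, 3409, 4922 and 4598 in KO1, KO3, KO7, WT2 and WT4 and 319 in WT6, 10.7-fold below the lowest. Acat2 and Fdps, a thiolase and farnesyl diphosphate synthase, were 8.71-fold and 8.37-fold below the lowest. Slc7a2, a transporter of arginine and other cationic amino acids, had 1372 to 4136 in the others and no read in WT6. Pdk4, a kinase that restrains pyruvate dehydrogenase, had 2309 to 4906 against 0. Cdkn2b, the cyclin-dependent kinase inhibitor p15, was at 8.80 against 1368 to 3598, the one member among 23 genes of its list reaching 50 counts.

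The members were then followed in the comparison of WT with Rag1KO hosts, in which WT6 is 1 of the 3 WT lines. With limma over 16137 genes in all 6 lines, 1 gene passed an adjusted p of 0.05, which is 0.0062% of those tested, and it was Eif2s3y. Of 250 members above and 1196 below that were tested, 0 passed. Their smallest adjusted p (limma, Benjamini-Hochberg) was 0.850, and 79 had an unadjusted p under 0.05, 5.46% of the members tested against 4.67% of all genes tested. edgeR's quasi-likelihood test called 0 members, with 72 at an unadjusted p under 0.05 (4.98% against 4.44% of all genes), and DESeq2 called 10, among 65 genes or 0.403% of those tested. Without WT6, limma called 5 of 16765 genes, 0.0298%, all sex-linked (Ddx3y, Eif2s3y, Kdm5d, Uty and Xist). In those lines host label and sex-linked expression coincided: KO1, KO3 and KO7 had the Y-linked transcripts, while WT2 and WT4 had Xist. A difference by host label therefore cannot be told apart from a difference by sex in that fit. Again 0 of 250 members above and 1234 below passed, with 116 at an unadjusted p under 0.05, 7.82% of the members tested against 4.12% of all genes tested. edgeR called 0 members there, with 117 under 0.05 (7.88% against 4.07% of all genes), and DESeq2 33, among 151 genes or 0.901%. Filtering on read counts leaves members that were present in few lines untested, so these are not all members. Nothing in the labels shows the lines to be more than single cultures, and the p-values then measure the spread between them.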

How the data were processed

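RNA from 6 cell lines was measured by sequencing, 1 library per line. Values are signal, deposited by the authors as normalized counts: within a tolerance of 0.01, dividing a library's values by its smallest step gave whole read counts for every gene. The submitters' processing notes name the mm10 build, DESeq2, STAR 2.7.9a, FastQC and Trim Galore 0.6.6, with no roles; the read counter and annotation are not given in the sources used here. In the files 27 gene symbols had been turned into dates. Gene positions are from GENCODE M21 (mm10), where 55141 of the gene IDs matched. TruSeq Stranded libraries were made, per the labels' protocols, but whether counting used strand is not given in the sources used here, so overlapping genes are uncertain.

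Log values are log2(normalized count + 1), which understates the change of low genes. Folds are ratios to the nearest other line where every line had more than 3 reads, and "at least" folds set a count of 0 at 3 reads. The members and gene lists were chosen with earlier results of these data known. Named genes were members reaching 100 in a line: the 15 per direction with the largest distance, up to 4 per list and direction, all genes of runs, and fixed markers; others are said to have been chosen after their values were seen. The planned test for counts was edgeR; since the files hold normalized values, limma 3.58.1 with a mean-variance trend was fitted to log2 values after filterByExpr, adjusted by Benjamini-Hochberg over all genes. Alternatives were edgeR 4.0.16 and DESeq2 1.42.0 on recovered reads, other pseudocounts, margins, scalings and filters, and leaving out lines. The fits were tested on simulated data. Some genes are not reported here. R 4.3.3, Python 3.11.15 and matplotlib 3.10.9 were used.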

Additional observations from a re-analysis of the deposited data

How the results depend on the processing

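The counts of 565 members above and 1270 below changed with the pseudocount and the margin. A pseudocount of 0.1 gave 1291 above, because genes with few reads then pass more easily. A margin of 1 gave 1420 above and 2287 below, and a margin of 3 gave 296 and 812. Against WT2 and WT4 alone 1053 genes were above. Restricting the genes to those kept by filterByExpr left 250 above, and to those reaching 100 in 1 line 357, through fewer genes counted. The share of members that lay above was 30.8% as reported, 40.7% with a pseudocount of 0.1 and 17.3% with filterByExpr. TMM scaling gave 563 above and 1270 below. Library-size scaling, which moved the median of all genes to 0.10, gave 592 and 1243. Leaving out 1 of the other lines gave 597 to 739 above and 1343 to 1451 below. Over 8 alternatives, the distances of the 333 named members moved by more than the spread of the other lines in 225 of 2664 comparisons. Of these, 120 were with a pseudocount of 0.1. All kept their direction, but leaving out a line or changing the pseudocount cannot reverse a member. Only TMM and library-size scaling could have done so. DESeq2 called 10 members in all 6 lines and 33 without WT6; the cause of the difference from limma was not tested. Leaving out each line in turn called 0 members in both comparisons. No paired analysis was possible because the groups share no replicate numbers. Depth limits what can be said of genes at 0 in WT6, where up to 2.64 normalized counts are allowed.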

Other observations

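Membrane transport differed between WT6 and the other 5 lines in both directions. Of 102 ion channel genes reaching 50 normalized counts, 22 were members below and 9 above, with a median difference of -0.99 on the log2 scale. Cacna1c, the pore subunit of the L-type calcium channel, had 3791, 4780, 3396, 7718 and 2496 in KO1, KO3, KO7, WT2 and WT4 and 1 read in WT6. Cacna1g, a T-type calcium channel subunit, had 475 to 7560 in the others and no read in WT6, at least 180-fold lower. Gria3, an AMPA receptor subunit, had 860 to 5630 against 0, at least 326-fold lower. Of 207 aquaporin and solute carrier genes, 31 were below and 12 above. Slc25a13, the mitochondrial aspartate-glutamate carrier citrin, had 381 to 1100 in the others and 0 in WT6, and Slc6a17, a vesicular amino acid transporter, had 2841 to 24848 against 1.76.

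Of 26 imprinted genes reaching 50 counts, 4 were members below and 1 above, few genes to set beside the 7.52% and 2.61% of all genes. Dlk1, a paternally expressed inhibitor of adipogenesis, was at 2.64 in WT6 against 41.3 to 2478, and Airn, the antisense RNA of the Igf2r locus, at 1414 against 91.0 to 309; it overlaps another gene, and reads of the pair may be shared. Pparg, the main transcription factor of adipocytes, was at 1 read in WT6 against 651 to 3169. Of 14 complement genes, 3 were members below. C3, the central component, was at 1 read against 31.2 to 2236, and Cd55, which protects cells from complement, at 0 against 37.7 to 1612.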
